A study of Mus musculus with 28 samples.

Results

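The response of mouse macrophages to 45 min of lipopolysaccharide (LPS, a component of the outer membrane of Gram-negative bacteria) was measured in newly made RNA. The comparison rests on 6 of the 28 libraries of the series: 3 libraries after LPS for 45 min and 3 untreated libraries. They were chosen by vector, time and RNA type, and not by any measured value. Each LPS library was set against the untreated library of the same deposited table, which gives 3 pairs.

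FVB/hsd mice gave the bone marrow, from which macrophages were grown in L929-conditioned medium and used on day 7. All had been infected with a retroviral vector and selected with puromycin. The LPS cells received 10 ng/ml for 45 min, and the untreated cells received none. In the Pnuts set and in the Set1a+Set1b set, both libraries of the pair came from cells with a scrambled hairpin and were prepared with a strand-specific kit. In the unstranded Wdr82 set, both came from cells with the empty vector LMP. Every control cell therefore carried a vector, and the response of uninfected cells was not measured. 4-thiouridine (4sU), a uridine analogue that is built into RNA during synthesis, was present for the last 45 min before harvest. In the LPS cells the labelling window was therefore as long as the stimulus. The labelled RNA was captured, so its level follows recent synthesis more closely than that of total RNA. No label says whether the 3 pairs came from separate animals or cultures, so the p-values measure the spread between these 3 pairs.

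LPS is bound by the accessory protein CD14 and recognised by the receptor TLR4 with its partner MD-2. The adaptors MyD88 and TRIF then pass the signal to the IkappaB kinases and to the MAP kinases. These release the transcription factor NF-kappaB from its inhibitors and activate AP-1 and serum response factor. The first genes to respond need no new protein and encode transcription factors, cytokines, chemokines and inhibitors of the same signal. A further wave, which includes many interferon-stimulated genes, depends on proteins made in the first.

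Levels are FPKM, fragments counted per kilobase of RNA and relative to the size of the library, a unit that takes gene length into account. Depth is unknown, since the tables hold no counts. Among genes above 0 but under 1 FPKM in both libraries of a pair, the commonest LPS over untreated ratio was 1.17-, 1.21- and 1.45-fold. These are the Pnuts, Set1a+Set1b and Wdr82 sets, where 10.4, 13.8 and 11.2% of such genes had it. This ratio joins depth with the unknown scaling between libraries, so it does not measure depth. Between 12509 and 13209 genes reached 1 FPKM in each library. All 14 macrophage markers measured were at or above 1 FPKM in all 6 libraries, with summed levels of 5871 to 7073 FPKM after LPS and 3594 to 4860 FPKM in untreated cells. The 11 neutrophil markers summed to 17.98 to 45.9 FPKM after LPS and 13.8 to 30.2 FPKM in untreated cells. The 9 dendritic cell markers summed to 74.7 to 146 FPKM after LPS and 26.7 to 69.3 FPKM in untreated cells. Ly6g, the defining neutrophil surface marker, was listed at 0 in all 6, but so was Hmgcs1, a cholesterol synthesis gene that every cell uses, so a listed 0 does not show that a transcript is absent. The sums for 11 lymphocyte, 6 erythroid, 9 stromal or endothelial, and 7 mast cell or basophil markers were at most 21.2 FPKM in any library.

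Within 45 min of LPS the RNA of chemokines, cytokines, immediate early factors and inhibitors of NF-kappaB and MAP kinases rose steeply, while the decreases were shallow. Of 13128 genes tested, 1343 (10.2%) were higher and 822 (6.26%) were lower (limma over the 3 log2 ratios, Benjamini-Hochberg adjusted p under 0.05). With each pair centred on its median gene the counts were 1083 higher and 1033 lower. At an unadjusted p under 0.05 there were 4879 (37.2%) in both directions. At least 2-fold higher in every pair were 334 genes (2.54%), and at least 2-fold lower in every pair were 76 (0.579%). Fold changes were taken on FPKM + 1, which understates the change of low genes. Small RNA, pseudogene, clone and predicted names were set aside to leave 9806 tested genes, called named genes here. The fit of all 13128 genes called 1091 of the named genes higher and 672 lower. A fit of the named genes alone called 1904 higher and 1298 lower, so the counts depend on which genes are fitted. In the fit of all genes, 123 of the named genes that rose had a mean of at least 4-fold, 21 of at least 16-fold and 4 of at least 64-fold. Among those that fell, 110 had a mean decrease of at least 2-fold and 1 of at least 4-fold.

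The test needs all 3 pairs. With any pair left out, limma with 1 residual degree of freedom called 0 genes, although 3138 to 3750 had an unadjusted p under 0.05. The counts of genes at least 2-fold changed in both remaining pairs were then 394 to 408 higher and 128 to 138 lower. Without the pairing by table, 300 genes were higher and 115 lower. Deposited confidence bounds of the LPS and untreated values lay apart in at least 1 pair for 351 of all 13128 genes. Among these were 226 of the 1343 genes that rose and 52 of the 822 that fell. The 3 pairs had similar medians over all genes, 0.05, 0.06 and 0.064 on the log2 scale, with SDs of 0.932, 0.983 and 1.175. Similar medians do not show that single genes had like ratios. Over all 13128 genes the Pearson correlation was 0.349 for Pnuts with Set1a+Set1b, 0.285 for Pnuts with Wdr82 and 0.27 for Set1a+Set1b with Wdr82. The Spearman correlations were 0.575, 0.575 and 0.61. The empty-vector pair had the largest ratio of the 3 in 231 of the 416 genes (3.17%) that were called higher with a mean of at least 2-fold. In the Pnuts, Set1a+Set1b and Wdr82 sets alone, the shares past 2-fold were 5.1%, 5.16% and 5.55% upward and 2.89%, 3.05% and 3.56% downward.

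In each value that follows, the 3 libraries of a group stand in the order Pnuts set, Set1a+Set1b set, Wdr82 set. The strongest response among the named genes was that of Cxcl1, which encodes a chemokine that attracts neutrophils through CXCR2. Cxcl1 had 2306, 1881 and 2073 FPKM after LPS, against 4.66, 6.31 and 5.94 FPKM in untreated cells. Its neighbour Cxcl2, a chemokine of the same kind, had 5411, 5298 and 4380 FPKM after LPS, against 53.9, 89.0 and 24.6 FPKM untreated. All LPS libraries stood far above all untreated ones, and the mean log2 ratios were 8.30 ± 0.34 for Cxcl1 (adjusted p = 0.00149) and 6.64 ± 0.77 for Cxcl2 (adjusted p = 0.00373; SD, n = 3 pairs). The deposited confidence bounds lay apart in 2 pairs for Cxcl1 and in 0 for Cxcl2. In the mm9 coordinates of the tables, Cxcl1 lies at chr5:91320267-91322141 and Cxcl2 at chr5:91332897-91334935. Cxcl3, another member of the group, had 14.7, 10.99 and 10.2 FPKM after LPS, against 1.23, 0.585 and 0.204 FPKM untreated. Its ratio was large but its level after LPS was far below those of Cxcl1 and Cxcl2. The platelet-type chemokine Pf4 changed least of the 4 tested members (mean log2 0.60, adjusted p = 0.0115). All 4 rose (beside 10.2% of all genes), and Cxcl5 and Ppbp were too low to be tested. The level filter used the mean of all 6 libraries, LPS included. A gene near 0 in untreated cells was thus tested only if its LPS values were high enough. In lists with such genes, of which Cxcl3 is 1, this can raise the share of tested members that rose.

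**Figure D1:**
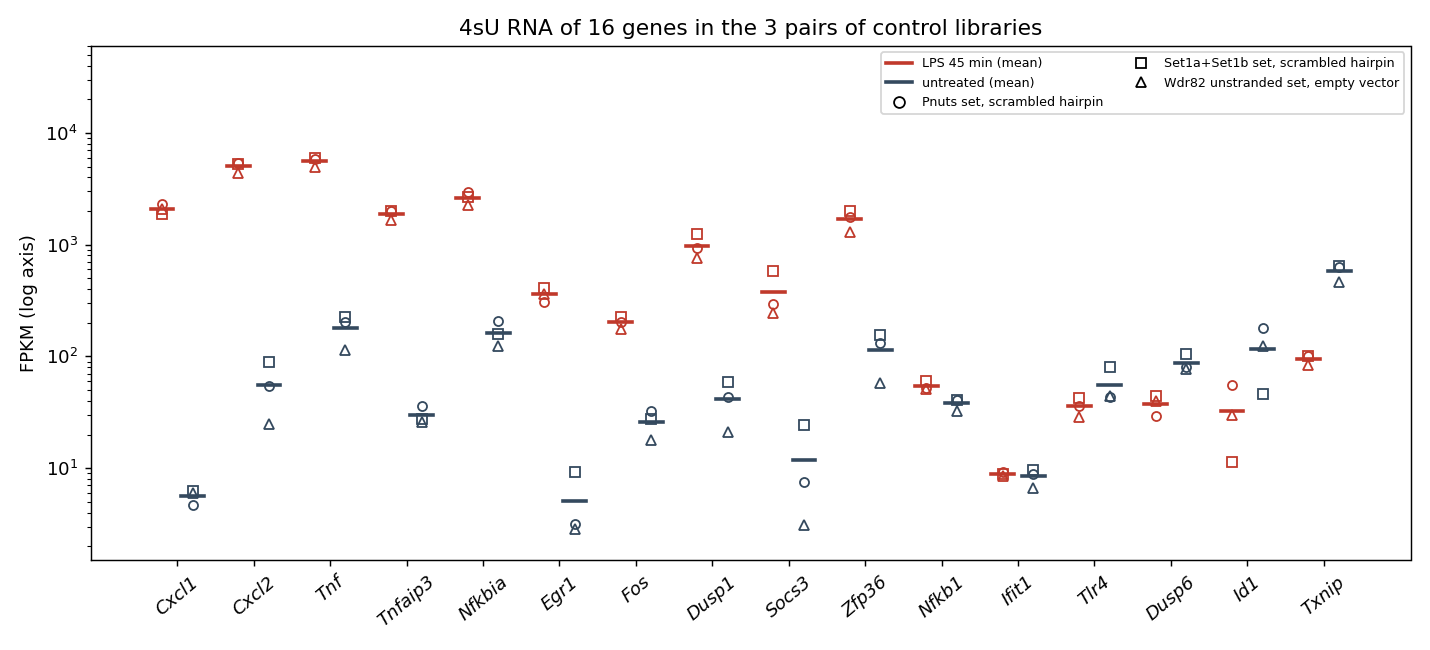
FPKM on a log axis in each of the 6 control libraries for 16 genes, with LPS 45 min in red left of untreated in dark blue; symbols mark the 3 sets and bars the means. Chemokine, cytokine and feedback genes on the left lie far above their untreated values (Cxcl1 2087 against 5.63 FPKM in the mean), Nfkb1 and Ifit1 differ little, and Txnip on the right is lower after LPS (95.2 against 578 FPKM in the mean).

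Promoter sequence was searched for letters that match known elements. The 250 bases before the annotated start of 7 genes are given 5′ to 3′ on the strand of the gene, from RefSeq on build GRCm38.p6. The first 4 belong to strongly induced chemokine and NF-kappaB inhibitor genes that hold a kappaB match, Tnf is an induced cytokine gene without one, Dusp1 is an induced phosphatase gene, and Txnip is the named gene with the largest decrease that passed the test. Capitals mark matches to the kappaB site, the AP-1 site TGANTCA, the cyclic AMP response element TGACGTCA, the CArG box or the TATA box TATAAA, searched on both strands.
Cxcl1, chr5:90890995-90891244, plus strand: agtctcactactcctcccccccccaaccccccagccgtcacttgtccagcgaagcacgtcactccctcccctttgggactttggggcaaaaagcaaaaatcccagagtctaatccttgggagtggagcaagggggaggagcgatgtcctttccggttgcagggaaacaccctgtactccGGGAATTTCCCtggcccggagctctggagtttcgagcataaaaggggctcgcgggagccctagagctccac
Cxcl2, chr5:90903649-90903898, plus strand: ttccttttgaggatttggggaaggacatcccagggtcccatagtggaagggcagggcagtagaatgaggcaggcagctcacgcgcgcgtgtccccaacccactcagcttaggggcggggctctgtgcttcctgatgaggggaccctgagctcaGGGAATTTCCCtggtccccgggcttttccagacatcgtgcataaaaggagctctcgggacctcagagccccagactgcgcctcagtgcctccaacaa
Tnfaip3, chr10:19015411-19015660, minus strand: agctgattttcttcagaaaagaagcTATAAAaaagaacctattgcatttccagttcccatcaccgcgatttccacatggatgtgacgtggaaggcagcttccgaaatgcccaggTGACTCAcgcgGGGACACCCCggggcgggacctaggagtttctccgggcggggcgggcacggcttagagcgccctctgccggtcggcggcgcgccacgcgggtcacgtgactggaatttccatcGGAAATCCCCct
Nfkbia, chr12:55492648-55492897, minus strand: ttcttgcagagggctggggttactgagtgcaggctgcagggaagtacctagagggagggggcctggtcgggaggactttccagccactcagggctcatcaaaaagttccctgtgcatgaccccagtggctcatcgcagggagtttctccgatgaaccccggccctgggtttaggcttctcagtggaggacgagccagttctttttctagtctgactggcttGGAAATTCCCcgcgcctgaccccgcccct
Tnf, chr17:35202008-35202257, minus strand: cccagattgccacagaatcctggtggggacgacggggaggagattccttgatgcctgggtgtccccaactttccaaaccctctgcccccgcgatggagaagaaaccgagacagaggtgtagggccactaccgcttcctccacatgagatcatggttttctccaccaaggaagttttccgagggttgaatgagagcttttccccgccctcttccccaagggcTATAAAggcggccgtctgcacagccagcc
Dusp1, chr17:26508473-26508722, minus strand: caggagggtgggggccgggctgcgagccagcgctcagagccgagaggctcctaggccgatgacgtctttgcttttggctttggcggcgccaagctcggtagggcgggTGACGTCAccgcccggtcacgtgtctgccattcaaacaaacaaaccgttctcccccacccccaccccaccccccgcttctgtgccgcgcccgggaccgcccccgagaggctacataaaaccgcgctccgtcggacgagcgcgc
Txnip, chr3:96557707-96557956, plus strand: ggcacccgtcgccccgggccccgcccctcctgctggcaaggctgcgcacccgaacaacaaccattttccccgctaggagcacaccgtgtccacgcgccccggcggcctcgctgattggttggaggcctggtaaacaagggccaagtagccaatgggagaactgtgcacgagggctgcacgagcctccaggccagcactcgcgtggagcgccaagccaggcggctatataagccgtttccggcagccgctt
Cxcl1 and Cxcl2 hold the same run of 11 letters, 2 overlapping kappaB matches, which starts 71 bases before the start in Cxcl1 and 97 bases before it in Cxcl2. The Tnfaip3 window has kappaB matches at 125 and 12 bases before the start, an AP-1 match at 136 and a TATA match at 225. Nfkbia has a kappaB match that begins 29 bases before the start. The Tnf window has a TATA match that also begins 29 bases before the start, and no kappaB match. The windows of the induced genes Junb, Egr2, Btg2, Zfp36 and Maff, which are not printed, held no kappaB match either, while those of Fos and Irf1 held 1 each. Dusp1 has the cyclic AMP response element at 143, and the 250 bases of Txnip hold none of the 5 motifs.

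Over all genes that were called higher and at least 2-fold in every pair, 220 of 277 matched a promoter window of 300 bases (250 before and 50 after the start). A kappaB match was present in 16.4% of these, in 3.13% of the windows of genes that fell, in 4.98% of those of all tested genes, and in 4.35% of all 27025 windows in the table. The TATA box stood in 20.9% of the windows of the induced genes, in 6.45% of those of genes that fell, in 6.76% of those tested and in 14.2% of all windows. AP-1 matches were in 10.0% of the induced, 3.13% of the lower, 4.76% of the tested and 7.93% of all windows. For the cyclic AMP response element the shares were 5.0%, 3.68%, 3.48% and 1.88%, and for the CArG box 2.27%, 1.29%, 1.28% and 1.57%. These are matches of letters and no measure of binding, and no enrichment test was made.

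Among the genes of the receptor and its signal chain, Tlr2 and Cd14 had large increases and most others moved little. Of 24 tested members, 9 were higher and 2 lower, beside 10.2% and 6.26% of all genes, and the median log2 ratio was 0.23 against 0.07 over all genes. Tlr2, the receptor for bacterial lipoproteins, had 318, 308 and 293 FPKM after LPS, against 34.9, 36.8 and 27.8 FPKM untreated (mean log2 3.18 ± 0.16, adjusted p = 0.00194). Cd14 had 1171, 1420 and 1171 FPKM after LPS, against 333, 396 and 187 FPKM untreated (mean log2 2.096 ± 0.47, adjusted p = 0.0128). The groups did not overlap for either gene. Irak2, a kinase that sustains signalling below MyD88, and Map3k8, which activates the ERK pathway, rose by mean log2 ratios of 1.23 and 1.09. Myd88 and Ticam1, which encodes TRIF, rose by 0.97 and 0.95. Tlr4 itself had 35.98, 42.8 and 28.6 FPKM after LPS, against 43.6, 80.1 and 44.5 FPKM untreated. Its mean log2 ratio of -0.59 ± 0.31 did not pass the test (adjusted p = 0.0618), although every LPS value lay under every untreated one. Ly96, which encodes MD-2, was at a mean log2 ratio of 0.16 (adjusted p = 0.223).

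Immediate early factors are induced without new protein synthesis. Of 22 tested EGR, NR4A, IER and related genes, 17 rose (77.3%, beside 10.2% of all genes) and none fell, and their median log2 ratio was 2.06. Egr1, a zinc finger factor induced by ERK and serum response factor, had 306, 410 and 362 FPKM after LPS, against 3.13, 9.21 and 2.84 FPKM untreated. Its mean log2 ratio of 6.03 ± 0.63 (adjusted p = 0.00352) was the largest of that list. Egr2, a related factor, had 66.2, 47.1 and 52.4 FPKM after LPS and 1.44, 2.27 and 1.06 FPKM untreated. Btg2, an antiproliferative gene, had 312, 380 and 263 FPKM after LPS and 12.8, 20.1 and 8.96 FPKM untreated. The groups did not overlap for any of these 3 genes. Nr4a1, an orphan nuclear receptor, rose less (8.07, 6.25 and 8.04 FPKM after LPS, against 2.58, 1.62 and 1.62 FPKM untreated). Klf2, a factor that restrains inflammatory genes, did not pass the test: it had 28.3, 72.9 and 65.5 FPKM after LPS, against 31.3, 42.5 and 15.7 FPKM untreated. Its pairs disagreed, and the groups overlapped (mean log2 0.87 ± 1.07, adjusted p = 0.236).

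Of 13 AP-1 and related genes, 8 rose (61.5%, beside 10.2% of all genes) and none fell (beside 6.26%). Fos, a subunit of the classical AP-1 dimer, had 205, 224 and 175 FPKM after LPS, against 32.7, 27.6 and 17.96 FPKM untreated (mean log2 2.94 ± 0.30, adjusted p = 0.0036). Junb had 968, 963 and 834 FPKM after LPS, against 79.7, 85.5 and 50.3 FPKM untreated (3.70 ± 0.29, adjusted p = 0.00306). Atf3, a factor that also limits LPS-induced cytokine genes, was already high in untreated cells, with 1955, 1521 and 1328 FPKM after LPS and 189, 211 and 167 FPKM untreated. The groups were apart for each of these genes. Maff, a small Maf protein without an activation domain, had the largest ratio of the list (58.2 FPKM after LPS against 2.75 FPKM untreated in the mean, log2 3.99). Jun rose less than 2-fold in the mean (log2 0.88, adjusted p = 0.0171), and its locus in the tables holds 4 genes, which the unstranded pair cannot separate.

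In the NF-kappaB system the inhibitors had the largest ratios. Of 18 tested members 16 rose (88.9%, beside 10.2% of all genes) and none fell (beside 6.26%), with a median log2 ratio of 2.04. Tnfaip3, which encodes the ubiquitin-editing inhibitor A20, had 2008, 1982 and 1676 FPKM after LPS, against 36.2, 27.7 and 26.0 FPKM untreated (mean log2 5.94 ± 0.18, adjusted p = 0.00149). Nfkbia, which encodes IkappaBalpha, had 2979, 2666 and 2241 FPKM after LPS, against 206, 158 and 123 FPKM untreated (4.03 ± 0.17, adjusted p = 0.00178). Nfkbiz, a nuclear IkappaB that acts as a coactivator, had 1211, 1327 and 1105 FPKM after LPS, against 27.6, 35.2 and 14.7 FPKM untreated (5.58 ± 0.50, adjusted p = 0.00313). The FPKM values of all 3 were far apart between the groups. For Tnfaip3 and Nfkbiz the deposited confidence bounds nevertheless overlapped in every pair. The subunits moved less: the mean log2 ratio was 2.25 for Relb, 1.83 for Nfkb2, 1.68 for Rel, 1.20 for Rela and 0.50 for Nfkb1, each with an adjusted p between 0.00373 and 0.0342. Nfkb1, which encodes p105, had 52.0, 59.9 and 50.7 FPKM after LPS, against 41.1, 40.6 and 32.3 FPKM untreated. The deubiquitinase gene Cyld and Tnip2 did not pass the test.

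Cytokine RNA rose in 12 of 18 tested genes (66.7%, beside 10.2% of all genes), and none fell (beside 6.26%). Lif, Csf2, Ifnb1 and Il12b passed the level filter only through their LPS values, which can raise this share. Tnf, the classical early cytokine, had 5800, 5937 and 4956 FPKM after LPS, against 203, 224 and 115 FPKM untreated (mean log2 4.99 ± 0.38, adjusted p = 0.00288). Il1b had 111, 133 and 177 FPKM after LPS, against 1.89, 6.46 and 0.777 FPKM untreated. Its mean log2 ratio of 5.36 had the largest SD of the 15 genes with the highest ratios, 1.24, with the spread lying mainly in the untreated values (adjusted p = 0.0127). Lif, a cytokine of the interleukin-6 family, had 29.6, 23.6 and 30.9 FPKM after LPS, against 1.35, 0.721 and 0.535 FPKM untreated. Tnfsf9, the ligand of 4-1BB, rose by a mean log2 ratio of 4.40. Csf2, which encodes GM-CSF, was listed at 0 in all untreated libraries and had 2.90, 2.43 and 2.76 FPKM after LPS. Ifnb1, which encodes interferon beta, had 1.62, 3.26 and 5.79 FPKM after LPS, and it was listed at 0, 0.35 and 0 FPKM untreated (adjusted p = 0.0385). The anti-inflammatory cytokine gene Il10 rose by a mean log2 ratio of 1.35 from a low level. Il12b had 0.867, 1.74 and 4.36 FPKM after LPS, against 0.0616, 0.0416 and 0 FPKM untreated, and did not pass the test (adjusted p = 0.0722). Il6 was not tested because its mean FPKM was under 1: it had 0.931, 1.02 and 1.75 FPKM after LPS, against 0, 0.23 and 0.0931 FPKM untreated.

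All 9 tested genes of the CC chemokine list rose, beside 10.2% of all genes. The list includes Ccrl2, an atypical receptor gene in the chemokine receptor cluster, which had 583, 551 and 526 FPKM after LPS, against 4.78, 4.83 and 5.83 FPKM untreated (mean log2 6.50 ± 0.20, adjusted p = 0.00149). The chemokine genes Ccl3 and Ccl4 reached means of 2268 and 3088 FPKM after LPS against 301 and 316 FPKM untreated. The monocyte attractants Ccl2 and Ccl7 started high and changed less. Ccl2 had 2511, 3078 and 2339 FPKM after LPS, against 1180, 1154 and 776 FPKM untreated (mean log2 1.37 ± 0.25, adjusted p = 0.0112). Among prostaglandin and adhesion genes 10 of 13 rose (76.9%, beside 10.2% of all genes) and none fell (beside 6.26%). Ptgs2, which encodes the inducible cyclooxygenase, had 122, 148 and 107 FPKM after LPS, against 2.18, 5.75 and 0.963 FPKM untreated. Icam1, an adhesion receptor for leukocyte integrins, had 193, 228 and 272 FPKM after LPS, against 17.7, 19.3 and 14.2 FPKM untreated, in a locus shared by 6 genes. Cd83, a surface marker of activated antigen-presenting cells, Irg1, whose enzyme makes itaconate, and the collagenase gene Mmp13 were also among the 15 genes with the highest ratios (mean log2 5.16, 4.76 and 4.62).

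Phosphatases that switch off MAP kinases moved in both directions. Of 11 tested, 7 were higher (63.6%, beside 10.2% of all genes) and 2 lower (18.2%, beside 6.26%). Dusp1, a nuclear phosphatase of p38 and JNK, had 935, 1249 and 761 FPKM after LPS, against 43.2, 59.5 and 21.1 FPKM untreated (mean log2 4.63 ± 0.41, adjusted p = 0.00321). Dusp2 had 37.2, 25.7 and 61.7 FPKM after LPS, against 2.64, 2.63 and 2.61 FPKM untreated. Both were higher in every LPS library than in any untreated one. Dusp6, a cytoplasmic phosphatase of ERK, went the other way, with 29.0, 44.6 and 39.7 FPKM after LPS and 80.7, 106 and 77.8 FPKM untreated (mean log2 -1.21 ± 0.25, adjusted p = 0.0125). Dusp7, another ERK phosphatase, also fell (mean log2 -0.59, adjusted p = 0.0483).

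The 3 members of the Zfp36 family, which bind AU-rich elements and speed mRNA decay, diverged. Zfp36, which encodes tristetraprolin, had 1780, 2004 and 1295 FPKM after LPS, against 132, 155 and 58.3 FPKM untreated (mean log2 3.96 ± 0.43, adjusted p = 0.0036). Zfp36l1 rose by a mean log2 ratio of 0.94 (adjusted p = 0.013). Zfp36l2 had 86.2, 55.5 and 45.9 FPKM after LPS, against 181, 123 and 133 FPKM untreated (-1.24 ± 0.24, adjusted p = 0.0114). Of all 12 mRNA decay genes 6 rose (50.0%, beside 10.2% of all genes) and 1 fell (8.33%, beside 6.26%). The endonuclease gene Zc3h12a rose by a mean log2 ratio of 1.53. Socs3, the feedback inhibitor of gp130 cytokine signalling, had 296, 578 and 245 FPKM after LPS, against 7.49, 24.6 and 3.11 FPKM untreated (5.18 ± 0.70, adjusted p = 0.00469). Of the SOCS and PIM list 4 of 10 rose (40.0%, beside 10.2% of all genes) and none fell (beside 6.26%). Socs1 did not pass, at 2.78 FPKM after LPS and 3.31 FPKM untreated in the mean.

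The list that joins interferon-stimulated with late LPS genes had 13 of 30 higher (43.3%, beside 10.2% of all genes) and none lower, with a median log2 ratio of 0.33. Irf1, which is itself an NF-kappaB target, had 722, 658 and 564 FPKM after LPS, against 59.5, 59.4 and 43.2 FPKM untreated (mean log2 3.57 ± 0.11, adjusted p = 0.00149). Cxcl10 had 126, 164 and 207 FPKM after LPS, against 4.82, 9.75 and 2.95 FPKM untreated. Cd40 rose by a mean log2 ratio of 2.90. Ifit1, an antiviral gene that requires interferon signalling, had 9.30, 8.83 and 8.49 FPKM after LPS and 8.89, 9.72 and 6.67 FPKM untreated (0.08 ± 0.22, adjusted p = 0.641). Mx1, Irf7 and Usp18 had mean log2 ratios between -0.13 and 0.09 and did not pass the test.

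**Figure D2:**
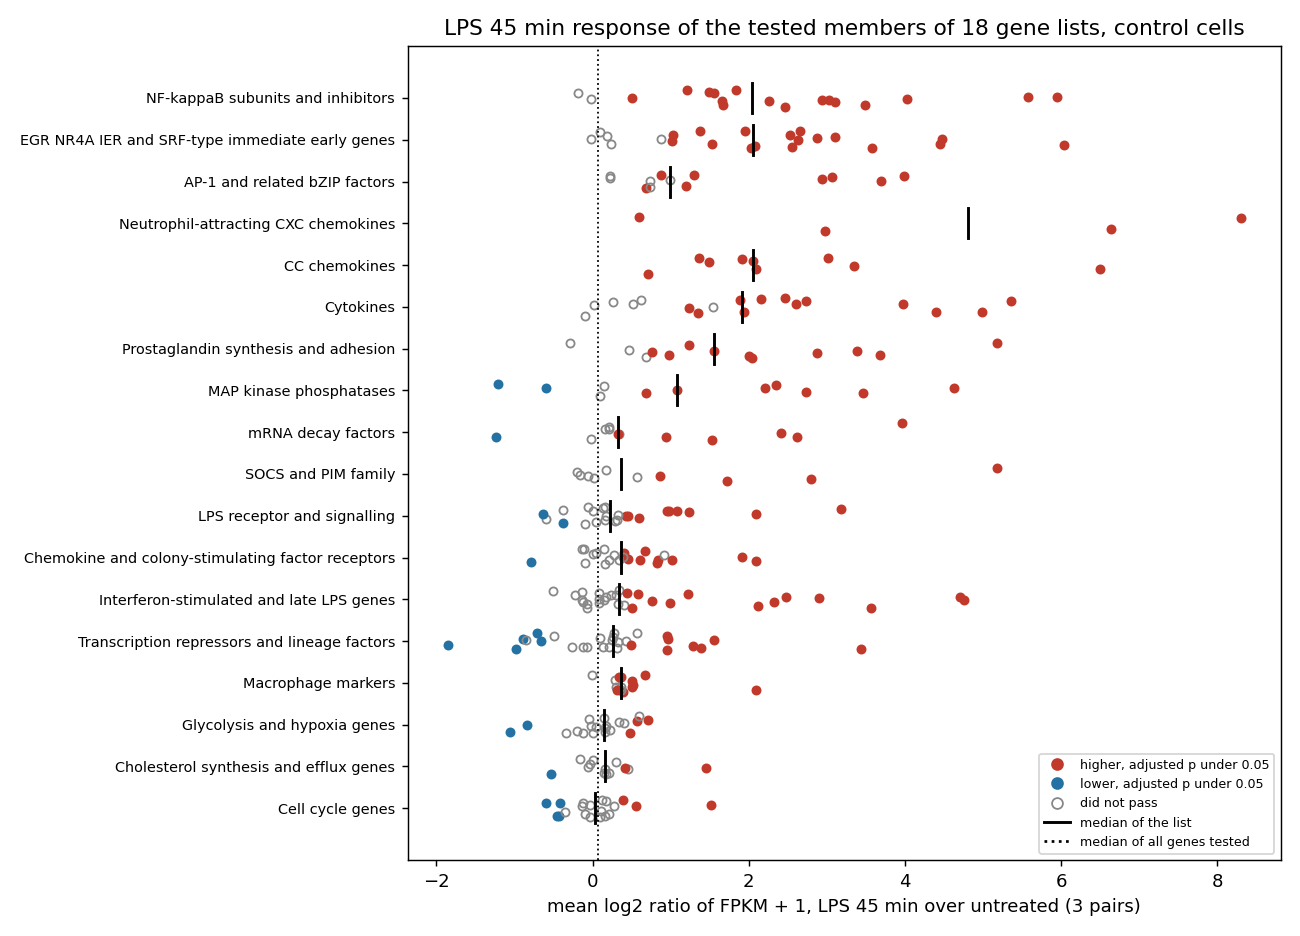
Mean log2 ratio (LPS 45 min over untreated, FPKM + 1) of each tested member of 18 gene lists; filled red and blue points passed the limma test, open points did not, thick ticks are list medians and the dotted line is the median of all genes tested (0.07). NF-kappaB, immediate early, chemokine and cytokine lists lie mostly to the right, while cell cycle and cholesterol lists lie around the dotted line.

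In the list of transcription repressors and lineage factors, 8 of 28 genes were higher (28.6%, beside 10.2% of all genes) and 5 lower (17.9%, beside 6.26%). Id1, an inhibitor of basic helix-loop-helix factors that responds to BMP signals, had 56.0, 11.4 and 30.2 FPKM after LPS, against 178, 46.1 and 123 FPKM untreated (mean log2 -1.86 ± 0.18, adjusted p = 0.0038). Its level differed widely between sets, so that the groups overlapped, yet it was lower in each pair. Id3, from the same family, rose in the same cells (250, 58.9 and 192 FPKM after LPS, against 113, 21.9 and 75.8 FPKM untreated, adjusted p = 0.00508). Maf, Cebpa and Hhex also fell. Kdm6b, an H3K27 demethylase, was the most strongly raised member (64.9 FPKM after LPS against 5.22 FPKM untreated in the mean, log2 3.44). Among receptors 9 of 22 rose (40.9%, beside 10.2% of all genes), led by Ifngr1 and Il10ra (mean log2 2.098 and 1.912). The only member of that list that fell was the chemokine receptor gene Cxcr4, with 98.7, 85.7 and 67.6 FPKM after LPS and 152, 137 and 143 FPKM untreated.

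Metabolic and cell cycle lists had shares of called members above those of all genes in both directions, on counts of 1 to 4 genes. Beside 10.2% higher and 6.26% lower over all genes, glycolysis and hypoxia genes had 3 of 20 higher (15.0%) and 2 lower (10.0%). Cholesterol genes had 2 of 13 higher (15.4%) and 1 lower (7.69%). Cell cycle genes had 3 of 20 higher (15.0%) and 4 lower (20.0%). The sterol sensor gene Insig1 rose by a mean log2 ratio of 1.46 and Cdkn1a, which encodes the cell cycle inhibitor p21, by 1.51. The 2 glycolysis genes that fell, Gapdh and Eno1, have many near-identical copies in the genome, so that their values are uncertain. Among 15 genes often used as references 4 rose (26.7%, beside 10.2% of all genes) and none fell (beside 6.26%). Of the macrophage markers 9 of 14 rose (64.3%, beside 10.2% of all genes), and all but Cd14 by less than 2-fold. Both tested genes of the dendritic cell list, Cd74 and H2-Ab1 of the MHC class II system, rose (mean log2 1.24 and 1.47), while the 2 tested lymphocyte, 3 stromal and 5 neutrophil genes did not pass. The part of these markers in the other results was not tested. In bulk RNA, more cells of a type and more RNA per cell cannot be told apart.

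Txnip had the largest decrease among the named genes that passed the test. It encodes an arrestin-like inhibitor of glucose uptake and of thioredoxin, and its RNA is known for fast turnover. It had 102, 101 and 83.0 FPKM after LPS, against 631, 638 and 464 FPKM untreated (mean log2 -2.58 ± 0.10, adjusted p = 0.00191). The FPKM values of the groups were far apart and the 3 ratios were close, but the deposited confidence bounds overlapped in every pair. The locus at chr3:96359688-96370724 holds 2 genes in the tables. Below Txnip and Id1, the list of the 15 genes with the largest decreases is made up of low or moderate genes. Med18, a subunit of Mediator, had 7.66, 6.00 and 5.80 FPKM after LPS, against 22.8, 22.3 and 15.97 FPKM untreated. Gna11, a G protein alpha subunit, had 6.12, 3.28 and 3.89 FPKM after LPS, against 18.6, 11.2 and 10.6 FPKM untreated. Thbd, which encodes the anticoagulant receptor thrombomodulin, had 4.79, 4.76 and 3.69 FPKM after LPS, against 13.6, 13.1 and 12.9 FPKM untreated. Each of these was lower in every LPS library than in any untreated one. Ccdc142, Mettl13 and Rab3a had mean log2 ratios of -1.61, -1.49 and -1.49.

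The remaining 7 of the 15 were genes with a Zfp symbol: Zfp952, Zfp157, Zfp553, Zfp61, Zfp60, Zfp931 and Zfp623. The symbol marks zinc finger proteins, many of which carry a KRAB domain and repress transcription. Zfp952 had 3.22, 2.31 and 1.35 FPKM after LPS, against 10.6, 11.7 and 8.93 FPKM untreated (mean log2 -1.83 ± 0.33, adjusted p = 0.0105). Zfp157 had 3.60, 3.35 and 2.33 FPKM after LPS, against 12.2, 14.4 and 12.2 FPKM untreated (-1.78 ± 0.24, adjusted p = 0.0067). In both the groups were well apart, though the levels are low. The whole set was then counted, a choice made after these values had been seen and therefore given without a test of the set.

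Of 276 tested genes with a Zfp symbol, leaving out symbols that begin with Zfp36, 90 fell (32.6%, beside 6.26% of all genes) and 15 rose (5.43%, beside 10.2%). The ratio was below 0 in all 3 pairs for 183 of the 276 and above 0 in all 3 for 36, whereas 22.8% of all genes were below 0 and 35.5% above 0 in all 3 pairs. The median log2 ratio was -0.43, and -0.35, -0.41 and -0.44 in the single pairs, beside 0.07 over all genes. They were lower than average in untreated cells, with a median of 8.42 FPKM against 12.9 FPKM. Within a window of 2 to 20 FPKM untreated, 86 of 222 Zfp genes fell (38.7%), against 464 of 5435 named genes (8.54%). The count was 82 with a pseudocount of 5 FPKM (29.7%, beside 5.48% of all genes). It was 45 without a filter on FPKM (16.3%, beside 1.72%) and 32 without pairing (11.6%, beside 0.876%). With small RNA, pseudogene, clone and predicted names left out before the test it was 140 of 274 (51.1%, beside 13.2% in that fit). It was 0 with any pair left out, where medians were -0.47 to -0.38. Confidence bounds lay apart in at least 1 pair for 19 of the 276 genes, beside 351 of all 13128 tested.

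**Figure D3:**
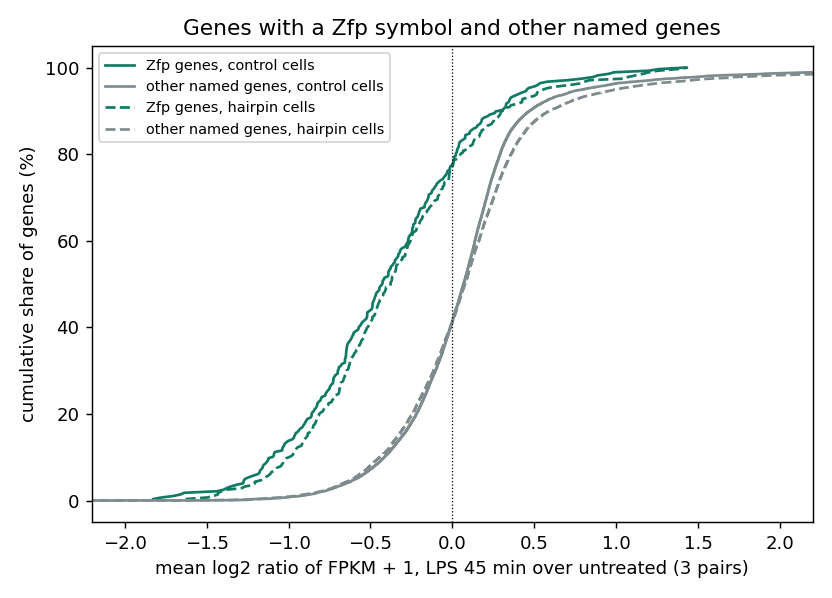
Cumulative share of genes (%) against the mean log2 ratio of LPS 45 min over untreated, for 276 Zfp genes (green) and 9472 other named genes (grey) in control cells (solid) and hairpin cells (dashed). The green curves lie to the left of the grey ones by about the same distance in both kinds of cell (Zfp medians -0.43 in control and -0.38 in hairpin cells).

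Genes that responded strongly were short. Among 5837 genes alone in their locus, those that were called higher with a mean of at least 2-fold had a median locus length of 10.9 kb (n = 244), those called lower 12.4 kb (n = 409), and all tested genes 19.7 kb. The share called higher with a mean of at least 2-fold was 7.53% for loci under 5 kb, 4.34% for 10 to 20 kb and 1.4% for those over 100 kb. The share called higher at any size was similar over these classes, between 10.4% and 14.2%. The share that fell declined with length, being 11.8% under 5 kb, 5.88% for 20 to 50 kb and 0.781% for 50 to 100 kb, and 0 of 430 genes over 100 kb fell in the limma test. Zfp genes alone in their locus had a median of 13.9 kb.

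By the rule that chose them, the induced genes also held a larger share of the summed FPKM after LPS than in untreated cells. FPKM are divided by gene length, so this is not a share of RNA mass. The summed FPKM of named genes was 423000, 437600 and 427500 after LPS, against 315800, 325800 and 315100 untreated. The 277 named genes that were at least 2-fold higher in every pair held 20.8, 21.0 and 16.5% of the summed FPKM of named genes after LPS, against 5.0, 5.58 and 3.36% in untreated cells. FPKM are relative to the library, and the part of this share in the decreases was not tested. Centring each pair on its median gene lowered every ratio, because the medians were above 0 (0.05, 0.06 and 0.064 log2). The 98 Zfp genes called lower after it therefore leave that part untested.

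The same pairs of times were measured in cells with a hairpin against Pnuts, against Set1a together with Set1b, or against Wdr82, which share tables but no libraries with the control pairs. As 3 different genes were targeted, these pairs are not replicates of 1 condition. In hairpin cells 1118 of 13652 genes were higher (8.19%) and 598 lower (4.38%). Of 12819 genes tested in both, 844 rose in both kinds of cell, which is 63.1% of the control calls and 76.9% of the hairpin calls. For the decreases 382 were shared, 46.8% of the control and 64.4% of the hairpin calls, and no gene was called in opposite directions. Of the 277 strongly induced named genes, 272 were called higher in hairpin cells, beside 8.19% of all genes. At least 2-fold higher in every hairpin pair were 253 of them, beside 3.15% of all genes. Among the Zfp genes 57 of 276 fell in hairpin cells (20.7%, beside 4.38%) and 12 rose (beside 8.19% of all genes).

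**Figure D4:**
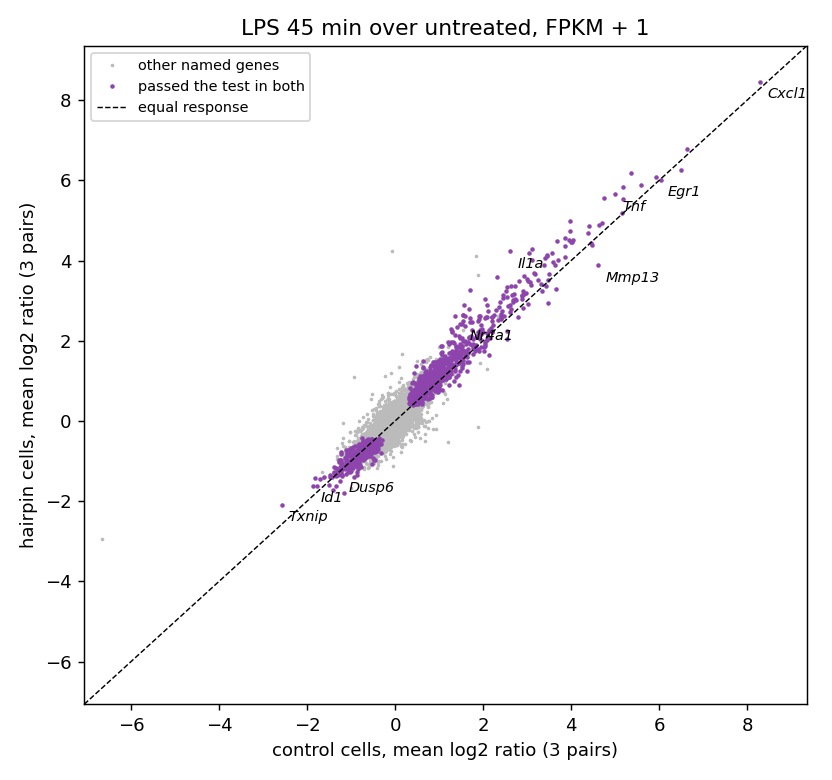
Mean log2 ratio of LPS 45 min over untreated for 9748 named or Zfp genes in hairpin cells (vertical) against control cells (horizontal), each over 3 pairs; purple points passed the test in both and the dashed line marks equal responses. The 1062 purple points follow the line from Txnip (control -2.58, hairpin -2.10) to Cxcl1 (control 8.30, hairpin 8.46).

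A test of the difference between the responses, hairpin minus control, called 0 genes higher and 1 lower of 13572 (0.00737%), while 817 (6.02%) had an unadjusted p under 0.05 in limma. The 1 gene is a small nucleolar RNA with unstable values. Several induced genes had a larger mean response in hairpin cells without passing this test. Tnf had a mean log2 ratio of 5.65 in hairpin cells and 4.99 in control cells, and Nr4a1 2.42 in hairpin cells and 1.53 in control cells. Mmp13 was the other way round, at 3.88 in hairpin cells and 4.62 in control cells. No difference of this size passed the test with 3 pairs. The test averages 3 different hairpins, so it does not test the effect of any one of them.

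Later times were available as single libraries of empty-vector cells. The libraries at 2 h and 4 h belong to the unstranded Wdr82 table and share their untreated library with the 45 min pair, and a separate stranded set gives 1 h with its own untreated library. These pairs have no replicate, so their values are given side by side. Of genes tested at 45 min, 3.44% were at least 2-fold higher and 2.47% at least 2-fold lower at 1 h, 9.51% and 6.72% at 2 h, and 17.2% and 11.4% at 4 h. In the 45 min pair of that table the shares were 5.55% and 3.56%.

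Some early genes were highest at 45 min in the unstranded table. Egr1 stood at 2.84 FPKM untreated, 362 FPKM at 45 min, 0.772 FPKM at 2 h and 2.19 FPKM at 4 h, and in the 1 h set at 5.20 FPKM at 1 h against 26.8 FPKM untreated. Fos stood at 17.96 FPKM untreated, 175 at 45 min, 5.31 at 2 h and 33.8 at 4 h, and in the 1 h set at 92.7 FPKM at 1 h against 92.9 FPKM untreated. In both genes the 45 min value was the highest of that table, and the untreated level of the 1 h set was several times that of the other table. Dusp1 was at 21.1 FPKM untreated, 761 at 45 min, 96.7 at 2 h and 106 at 4 h. Jun was at 79.0 FPKM untreated, 158 at 45 min, 7.10 at 2 h and 63.1 at 4 h.

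Other genes, chosen after their values were seen, were far above untreated at every time of the unstranded table. Cxcl1 was at 5.94 FPKM untreated, 2073 at 45 min, 2062 at 2 h and 1615 at 4 h, and in the 1 h set at 2092 FPKM at 1 h against 17.1 untreated. Tnf was at 115 FPKM untreated, 4956 at 45 min, 3467 at 2 h and 5628 at 4 h. Nfkbia was at 123 FPKM untreated, 2241 at 45 min, 1674 at 2 h and 2105 at 4 h. Cxcl1 and Nfkbia thus kept most of their 45 min level at 2 h, while other members of their lists were lower. Cxcl2 was at 24.6 FPKM untreated, 4380 at 45 min, 1698 at 2 h and 3882 at 4 h. Tnfaip3 was at 26.0 FPKM untreated, 1676 at 45 min, 825 at 2 h and 1541 at 4 h. Nfkbiz was at 14.7 FPKM untreated, 1105 at 45 min, 590 at 2 h and 699.7 at 4 h. A further group differed little from untreated at 45 min. Ifit1 was at 6.67 FPKM untreated, 8.49 at 45 min, 368 at 2 h and 2071 at 4 h. Mx1, another antiviral gene, was at 11.7 FPKM untreated, 9.55 at 45 min, 203 at 2 h and 2647 at 4 h. In both genes the first clear difference was at 2 h. Nfkb1 was at 32.3 FPKM untreated, 50.7 at 45 min, 280 at 2 h and 429 at 4 h. Il1b lay between these kinds, with 0.777 FPKM untreated, 177 at 45 min, 601 at 2 h and 2182 at 4 h.

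**Figure D5:**
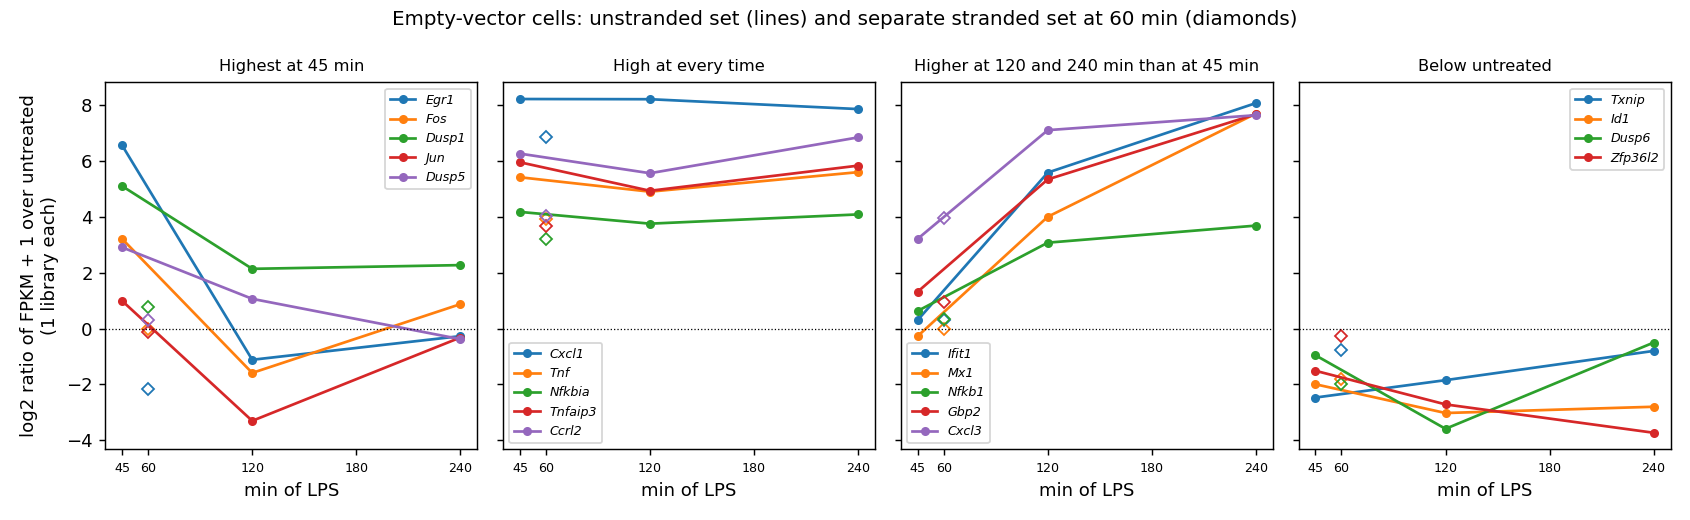
Log2 ratio of FPKM + 1 over untreated at 45, 120 and 240 min of LPS in the unstranded empty-vector set (lines, shared untreated library) and at 60 min in a separate stranded set (diamonds), 1 library per point. Egr1 and Fos are highest at 45 min (6.56 and 3.21), Cxcl1 stays between 7.86 and 8.22 in the lines, Ifit1 reaches 8.08 at 240 min, and Id1 stays below untreated throughout.

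The genes that fell also had unlike values in the later libraries, of which there was 1 per time. Id1 remained low in these libraries, at 123 FPKM untreated, 30.2 at 45 min, 14.2 at 2 h and 16.8 at 4 h, and at 47.4 FPKM at 1 h against 170 FPKM in the 1 h set. Txnip was at 464 FPKM untreated, 83.0 at 45 min, 128 at 2 h and 266 at 4 h, and at 394 FPKM at 1 h against 671 in the 1 h set. Zfp36l2 was lower still at the later times, with 133 FPKM untreated, 45.9 at 45 min, 19.4 at 2 h and 9.07 at 4 h. The Zfp genes as a set had a median log2 ratio of -0.44 at 45 min, -0.12 at 2 h and 0.08 at 4 h, and of 0.10 at 1 h in the other set. Over all tested genes the medians were 0.064 at 45 min, 0.05 at 2 h, 0.114 at 4 h and 0.043 at 1 h. Zfp952 was at 8.93 FPKM untreated, 1.35 at 45 min, 9.81 at 2 h and 14.7 at 4 h. Of the 277 named genes strongly induced at 45 min, 151 (54.5%, beside 3.44% of all genes) were also at least 2-fold higher in the 1 h pair. That pair shares no library with the 45 min pairs, and the median log2 ratio of the 277 genes in it was 1.07. Of the 47 named genes that were at least 2-fold lower in every pair, 2 were at least 2-fold lower in the 1 h pair (4.26%, beside 2.47% of all genes). Below its untreated level were 31 of the 47. The 1 h set and the unstranded table differ in library kit and in untreated level.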

How the data were processed

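Per the labels, 4sU was added 45 min before harvest and labelled RNA was isolated with biotin and streptavidin. TopHat 1.3.1, Cufflinks 2.1.1, Cuffdiff 2.1.1 and build mm9 are named in the submitters' processing notes. Per the file headers, each of 36806 genes has an FPKM, confidence bounds and a status per library. The authors deposited FPKM and no counts. The sources used here name neither the annotation nor the scaling between libraries. LPS times were read from the sample titles. The treatment label names 4 h only.

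From these values, log2((FPKM + 1)/(FPKM + 1)) was taken within each table, and the 3 ratios were tested with limma 3.58.1 (R 4.3.3) using empirical Bayes with a trend on level, 2 residual degrees of freedom and Benjamini-Hochberg adjustment over all 13128 genes with status OK in all 6 libraries and a mean of at least 1 FPKM. Errors are the SD over 3 pairs. Pairs come from the shared table, and deviations from group means correlated within pairs (0.24, 0.276 and 0.409 across genes). The 15 genes with the highest and the 15 with the lowest mean ratio that passed, with at least 5 FPKM in the higher group mean, were named, with members of 25 lists. Members and lists were chosen with earlier results of these data known. In simulated data of 12799 genes, 22 of 49 genes raised 2-fold and 40 of 50 raised 4-fold were recovered. Of genes lowered to 0.5 and 0.25 of their level, 23 of 46 and 41 of 46 were recovered. Wrong calls were 16 of 12608 unchanged genes, which is a larger share of the calls than of the unchanged genes. Far fewer genes were changed than were called in the real data, and spread was drawn independently for each gene. Alternatives were other pseudocounts, filters, centring, a fit without trend, no pairing and leaving out each pair. Promoter windows (RefSeq, GRCm38.p6) were matched by gene ID or symbol. The DRB and polyA tables were not used here. A few members of the lists are counted but not reported here by name.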

Additional observations from a re-analysis of the deposited data

Results flagged for a closer look

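SNORD50, a small nucleolar RNA entry at chr9:88494494-89023388 in a locus of 15 genes, was the single gene whose LPS response differed between hairpin and control cells (log2 difference -11.63, limma adjusted p = 0.0323). In hairpin cells it had 0, 0 and 0 FPKM after LPS, against 2848, 0 and 9136 FPKM untreated. In control cells it had 0, 2140 and 9798 FPKM after LPS, against 0, 0 and 17020 FPKM untreated. It is thus listed at 0 in 7 of the 12 libraries and at 2140 FPKM or more in the others. In the unstranded untreated control library the deposited FPKM of 17020 lay above its own upper bound of 151. Under a pseudocount of 5 FPKM, without a filter on FPKM, without the trend or with any pair left out, it was no longer called.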

How the results depend on the processing

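With 1 pair left out at a time, limma called 0 genes in either direction in control cells, 0 in hairpin cells and 0 lower for their difference. The count at least 2-fold lower in the remaining control pairs was then 128 to 138. Without the replicate block given by the shared tables, 300 genes were higher and 115 lower in control cells, and all of them were also called with it. Without a filter on FPKM, 361 genes were lower in control cells, and 649 were higher and 164 lower in hairpin cells. Without small RNA, pseudogene, clone and predicted names, 1904 of 9806 genes were higher and 1298 lower in control cells. With those names kept in the fit, 1091 and 672 of the same genes were called. In hairpin cells 1866 were higher and 1135 lower without those names. At least 2-fold lower in every control pair were then 47. The last count was 154 with a pseudocount of 0.1 FPKM, 12 with 5 FPKM and 38 at a mean of at least 5 FPKM. The single gene with a lower response in hairpin cells dropped to 0 with a pseudocount of 5 FPKM, without the filter, without those names and without the trend. The mean log2 ratio of Cyld lay between -0.087 and 0.039 and that of Ifit1 between -0.034 and 0.183 with 1 pair left out, and neither passed the test in any case. The cause of these changes was not tested. Depth is unknown, so no counting error can be given.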
